A study of Mus musculus with 18 samples.

Results

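The genes described here encode the constitutive proteasome, with its regulators and assembly factors. They were the rows whose symbol runs from Psma to Psmg followed by a number, without the immunoproteasome genes Psmb8, Psmb9 and Psmb10. This gave 46 of the 49 matching symbols among 23420 genes listed. By symbol they comprised 8 alpha (Psma), 8 beta (Psmb), 6 ATPase (Psmc), 14 non-ATPase (Psmd) and 4 activator (Psme) genes, and 6 others. The others were the inhibitor gene Psmf1, the assembly chaperone genes Psmg1 to Psmg4, and Psmc3ip, which matched by spelling but encodes a meiotic recombination protein and no subunit.

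Expression was measured by RNA-seq of splenic B cells from 5 to 7 week old mice of the MRL/lpr background, which lack functional Fas and develop lupus-like autoimmunity. Cells purified with beads by negative selection were cultured for 4 h with or without a TLR agonist. In the first arm, all mice were female and Tlr7-/-. They were either Tlr9+/- (called Tlr9het) or carried Tlr997, a TLR9 whose TIR signaling domain is that of TLR7, and the agonist was CpG at 10 µg/ml, a DNA ligand of TLR9. In the second arm, mice were male, Tlr9-/- and carried Tlr779, a TLR7 with the TIR domain of TLR9, and the agonist was CL097 at 5 µg/ml, a small-molecule ligand of TLR7. Each of the 6 groups had 3 libraries, 18 in all. The sources differ on the control genotype of the first arm, which the titles give as Tlr9+/- and the treatment protocol as Tlr9-/-; the titles were followed. Receptor, sex and agonist changed together between the arms and cannot be told apart, so CpG and CL097 values are given side by side and were not tested against each other. The libraries of Tlr7 wild-type controls were not analysed here.

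The values were log2 CPM (read counts scaled to a common library size, on a log2 scale) without counts, so the depth of each library is unknown. Per the labels and methods, quantile normalization was also applied, which gives the libraries a like distribution. It draws the median change over all genes towards 0, and shares of CPM given below are not shares of reads. Libraries of 1 group correlated over genes at a Pearson r of at least 0.95. All 5 B cell markers were over 0 log2 CPM in every library. Their summed CPM was 5180 to 6900 without agonist, 1620 to 3110 with CpG and 2250 to 2920 with CL097, mostly through Cd79a and Cd79b, while Pax5 did not fall. T cell markers summed to at most 21.2 CPM, NK cell markers to at most 3.01 and myeloid markers to 71.5 to 414. Erythroid markers summed to 12.2 to 474 and plasma cell markers to 268 to 1040, the latter with a lower median with agonist in each genotype. No T cell marker was over 0 log2 CPM in every library. From without to with agonist, the median T cell sum went from 7.86 to 20.1 CPM in Tlr9het, 4.58 to 9.2 in Tlr997 and 2.91 to 4.93 in Tlr779, and the T cell marker Cd8a and the NK cell marker Ncr1 were called higher with CpG in both genotypes. The median myeloid sum went from 214 to 163, 254 to 157 and 234 to 116 CPM; Lyz2 was called lower in all 3 responses and Csf1r with CL097, while Itgam was called higher in Tlr997. These marker shifts occurred in the same libraries as the responses described next, and their part in them was not tested. In bulk RNA, fewer cells of a type and less RNA per cell cannot be told apart.

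The proteasome degrades proteins that carry ubiquitin chains. Its core is a barrel of stacked rings of alpha and beta subunits, in which the beta subunits Psmb5, Psmb6 and Psmb7 hold the proteolytic sites. The regulatory particle caps the barrel, and its ATPase ring unfolds the substrate. Its non-ATPase subunits include ubiquitin receptors and form the remaining base and a lid, which removes ubiquitin. In lymphoid cells the immunoproteasome subunits Psmb8, Psmb9 and Psmb10 can take the place of the catalytic subunits and alter the peptides available for MHC class I.

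Most proteasome genes were higher after stimulation. A gene was called when its limma adjusted p was under 0.05 and its log2 fold change beyond 0.5 in either direction. In Tlr9het B cells, 31 of 44 tested proteasome genes were called higher with CpG, which was 70.5% against 29.7% of all tested genes. A single one, Psme4, was called lower, against 28.2% of all genes. In Tlr997 B cells, 29 of 44 were called higher (65.9% against 29.6% of all genes) and Psmb1 alone was called lower (background 26.0%). With CL097 in Tlr779 B cells, 22 of 44 (50%) were called higher against 22.7% of all genes. None was called lower by limma with CL097, where the background was 23.6%, and the only ones lower at adjusted p alone were Psma1 and Psmb1. The genes not tested, because too few libraries were over 0 log2 CPM, were the testis alpha subunit gene Psma8, at -4.83 to -0.40 log2 CPM, and the thymus beta subunit gene Psmb11, at -5.12 to -3.59.

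The median log2 fold change of the 44 genes was 0.81 with CpG in Tlr9het, 0.82 with CpG in Tlr997 and 0.46 with CL097 in Tlr779. Over all tested genes the medians were 0.04, 0.07 and -0.02. Without the fold threshold, 38, 38 and 31 of the 44 were higher (86.4%, 86.4% and 70.5%), against 37.3%, 38.0% and 30.2% of all genes. In the same responses, 4, 2 and 2 were lower (9.09%, 4.55% and 4.55%), against 35.3%, 33.1% and 31.4%. Together, the 44 genes took 0.478% ± 0.0083 (SD, n = 3) of a library's CPM in unstimulated Tlr9het cells and 0.776% ± 0.016 with CpG. The shares were 0.508% ± 0.0182 and 0.809% ± 0.0061 in Tlr997, and 0.509% ± 0.0242 and 0.694% ± 0.0095 in Tlr779 without and with CL097. The lowest stimulated library of each genotype lay above its highest unstimulated library.

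Of the 44 genes, 22 were called higher in all 3 responses, 7 in both CpG responses only, and Psmd9 and Psmf1 in Tlr9het only. The 7 were Psmb4, Psmb6, Psmc2, Psmc5, Psmd1, Psmd6 and Psmg4. In Tlr997, Psmb4 was at the threshold (0.50), and its call was lost, at 0.48 to 0.50, without the second or the third unstimulated library or the first or the second CpG library, and with each library centred on its median. The difference of CL097 from the CpG responses was not tested. How many of all tested genes shared calls in this way is not given, so these overlaps have no background share. Over all genes, the CpG response in Tlr9het had a Pearson r of 0.93 with that in Tlr997. Its r with the CL097 response was 0.87. The 13 genes called higher in no response were Psma1, Psmb1, Psmb3, Psmc1, Psmc3, Psmc6, Psmd2, Psmd4, Psmd5, Psmd10, Psmd13, Psme1 and Psme4.

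**Figure D1:**
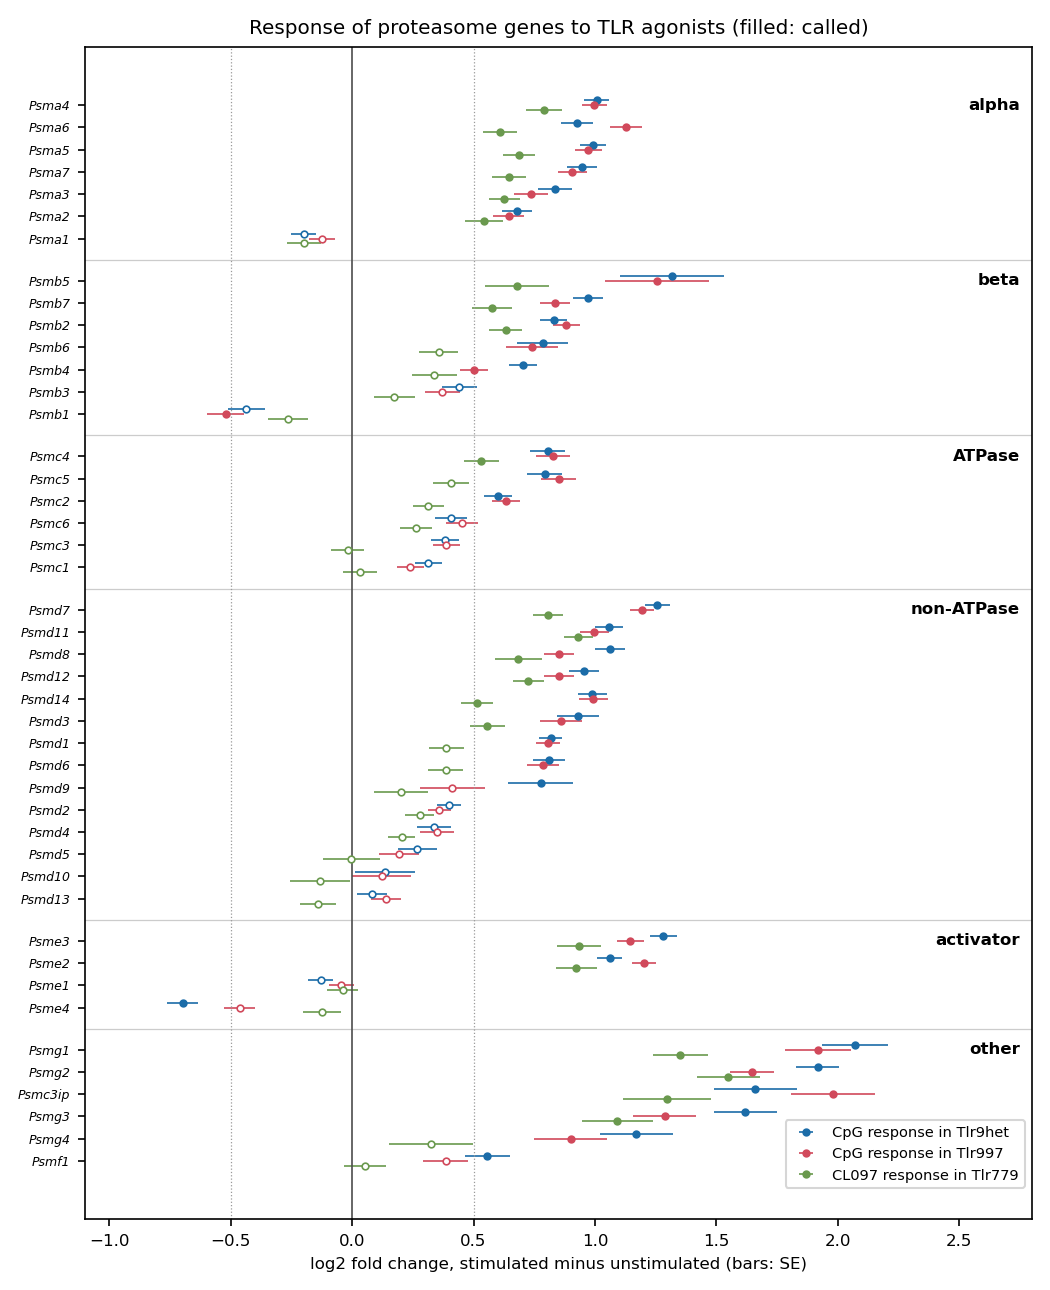
Log2 fold change (x axis, log2 CPM stimulated minus unstimulated, bars ± SE) of the 44 tested proteasome genes, 1 line per gene, grouped by class. Filled points were called by limma (adjusted p under 0.05 and log2 fold change beyond 0.5, dotted lines). With CpG most genes lie right of 0.5, Psmg1, Psmg2, Psmg3 and Psmc3ip lie farthest right in each response, and Psma1, Psmb1, Psme1 and Psme4 lie left of 0 in each response.

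Of the 7 tested alpha genes, 6 were called higher in each response, with medians over the 7 of 0.93 in Tlr9het, 0.91 in Tlr997 and 0.63 with CL097. The shares of all tested genes called higher were 29.7%, 29.6% and 22.7%, and no class count was tested against them. The called genes ran from 0.68 (Psma2) to 1.01 (Psma4) in Tlr9het, from 0.64 (Psma2) to 1.13 (Psma6) in Tlr997, and from 0.54 (Psma2) to 0.79 (Psma4) with CL097. The call of Psma2 with CL097 was lost, at 0.49, without the first unstimulated or the second CL097 library. The alpha rings form the gate of the barrel, and each of the alpha subunits occupies a fixed place in them.

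Psma4 (chr9:54950781-54958034) had the highest mean response of the alpha genes. It was at 7.22, 7.25 and 7.16 log2 CPM in unstimulated Tlr9het libraries and at 8.14, 8.26 and 8.26 with CpG. In Tlr997 it was at 7.32, 7.32 and 7.28 and then at 8.25, 8.34 and 8.32. In Tlr779 it was at 7.13, 7.31 and 7.23 without and 7.92, 8.07 and 8.04 with CL097. Stimulated and unstimulated libraries were far apart in all genotypes. The log2 fold change was 1.01 ± 0.05 (SE), or 2.01-fold, in Tlr9het (limma adjusted p 8.25e-10), 1.00 ± 0.05 in Tlr997 (adjusted p 1.19e-09) and 0.79 ± 0.07 with CL097 (adjusted p 5.15e-05).

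Psma1 (chr7:114264550-114276116) was the exception among them. It was at 7.24, 7.297 and 7.21 log2 CPM without and 6.96, 7.11 and 7.08 with CpG in Tlr9het. Its values in Tlr997 were 7.39, 7.43 and 7.33 without and 7.26, 7.28 and 7.25 with CpG, and in Tlr779 at 7.32, 7.47 and 7.47 without and 7.16, 7.203 and 7.29 with CL097. Stimulated libraries were lower in each genotype with no overlap, but by little. The log2 fold changes were -0.20 ± 0.05, -0.12 ± 0.05 and -0.20 ± 0.07, none of which met the fold threshold (limma adjusted p 0.00415, 0.053 and 0.0383).

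Of the 7 tested beta genes, 5 were called higher in each CpG response and 3 with CL097, against 29.7%, 29.6% and 22.7% of all tested genes. Their medians were 0.79, 0.74 and 0.36 in Tlr9het, Tlr997 and Tlr779. Psmb5 had the highest value of the class in each response.

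Psmb5 (chr14:54614120-54617995) encodes the subunit with chymotrypsin-like activity. It was at 4.15, 4.38 and 4.58 log2 CPM in unstimulated Tlr9het libraries and at 5.68, 5.69 and 5.69 with CpG. The Tlr997 values were 4.59, 4.63 and 3.59 without and 5.57, 5.41 and 5.59 with CpG. Its values in Tlr779 were 4.16, 4.59 and 4.56 without and 5.17, 5.13 and 5.04 with CL097. Every stimulated library was above every unstimulated one, and the third unstimulated Tlr997 library stood below its group. The log2 fold change was 1.32 ± 0.21 in Tlr9het (limma adjusted p 8.59e-05), 1.25 ± 0.21 in Tlr997 (adjusted p 0.000145) and 0.68 ± 0.13 with CL097 (adjusted p 0.00248). Without the low Tlr997 library the value in Tlr997 was 0.91 (adjusted p 6.78e-06).

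Psmb6 (chr11:70525324-70527858), which encodes the caspase-like subunit, showed the same low library. It was at 6.57, 6.68 and 6.73 log2 CPM without and 7.39, 7.46 and 7.48 with CpG in Tlr9het, and at 6.80, 6.77 and 6.30 without and 7.33, 7.37 and 7.39 with CpG in Tlr997. The Tlr779 values were 6.53, 6.76 and 6.74 without and 6.98, 7.04 and 7.08 with CL097. The groups did not overlap in any genotype. Psmb6 rose by 0.79 ± 0.11 in Tlr9het (limma adjusted p 1.59e-05) and by 0.74 ± 0.11 in Tlr997 (adjusted p 2.99e-05; 0.58 without the low library), while the difference with CL097, 0.36 ± 0.08, missed the fold threshold (adjusted p 0.00511).

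Psmb7 (chr2:38588046-38643952) encodes the trypsin-like subunit. It was at 6.10, 6.17 and 6.21 log2 CPM without and 7.06, 7.13 and 7.21 with CpG in Tlr9het. In Tlr997 it was at 6.44, 6.36 and 6.25 without and 7.17, 7.19 and 7.202 with CpG, and in Tlr779 at 6.25, 6.45 and 6.41 without and 6.85, 7.02 and 6.96 with CL097. Again no stimulated library overlapped an unstimulated one. Psmb7 rose by 0.97 ± 0.06 in Tlr9het (limma adjusted p 7.97e-09), 0.83 ± 0.06 in Tlr997 (adjusted p 4.39e-08) and 0.58 ± 0.08 with CL097 (adjusted p 0.000446). Of its annotated exon bases, 11.8% overlap exons of Nek6 on the opposite strand, and the strand setting of the counting was not stated.

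Psmb1 (chr17:15475721-15498276), a beta subunit without a proteolytic site, went the other way. It was at 7.34, 7.46 and 7.48 log2 CPM without and 6.91, 7.06 and 7.01 with CpG in Tlr9het, and at 7.84, 7.68 and 7.52 without and 7.18, 7.11 and 7.195 with CpG in Tlr997. In Tlr779 it was at 7.57, 7.78 and 7.76 without and 7.33, 7.53 and 7.46 with CL097. Stimulated libraries were lower with no overlap in all genotypes. Only the value in Tlr997, -0.52 ± 0.08, was called (limma adjusted p 3.54e-05), and it lay close to the threshold: it was -0.44 without the first unstimulated and -0.49 without the second CpG library of Tlr997, and the call was lost. The values of -0.44 ± 0.08 in Tlr9het and -0.26 ± 0.08 with CL097 passed the adjusted p (0.000157 and 0.0234) but not the fold threshold.

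Psmb8, Psmb9 and Psmb10, the immunoproteasome counterparts of Psmb5, Psmb6 and Psmb7, did not share the increase. Psmb8 had log2 fold changes of -1.07 with CpG in Tlr9het and -0.63 in Tlr997, both called lower by limma, and -0.25 with CL097, which was not called; Psmb10 was called lower in all 3 responses, at -0.86, -0.83 and -0.76, and Psmb9 in none, at -0.32, -0.11 and 0.48. Each pair was therefore compared within libraries, as the log2 CPM of the constitutive gene minus that of its counterpart.

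The Psmb5 to Psmb8 difference rose by 2.39 with CpG in Tlr9het, 1.88 in Tlr997 and 0.93 with CL097. The Psmb7 to Psmb10 difference rose by 1.83, 1.66 and 1.34. In all of these the libraries did not overlap, and the exact two-sided permutation p was 0.1, the smallest that 3 against 3 libraries can give. The Psmb6 to Psmb9 difference rose by 1.11 and 0.85 with CpG, again with p 0.1, but changed by -0.12 with CL097, where the libraries overlapped (exact permutation p 0.7). That direction rested on the third unstimulated Tlr779 library, at 1.02 against 0.32 and 0.18 in the other two; without it the change was 0.14, a calculation chosen after seeing the data. With CpG, the Psmb5 to Psmb8 difference was lower in Tlr997 than in Tlr9het by -0.67, without overlap (exact permutation p 0.1). The Psmb6 to Psmb9 difference was also lower there, by -0.565, without overlap (exact permutation p 0.1). The Psmb7 to Psmb10 difference changed by -0.099, with overlap (exact permutation p 0.4). Without agonist, Tlr997 minus Tlr9het was -0.165 for Psmb5 to Psmb8 and -0.309 for Psmb6 to Psmb9, both with overlap. For Psmb7 to Psmb10 it was 0.07, without overlap (exact permutation p 0.1). Whether these gaps between genotypes changed with CpG was not tested. With CpG, both terms entered the Psmb5 to Psmb8 difference. Psmb8 was higher in Tlr997 by 0.51 ± 0.07 (limma adjusted p 0.0014). Psmb5 was lower there by -0.16 ± 0.21 (adjusted p 0.777), its CpG libraries did not overlap between the genotypes, and its SE is shared with the group that holds the low unstimulated library.

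**Figure D2:**
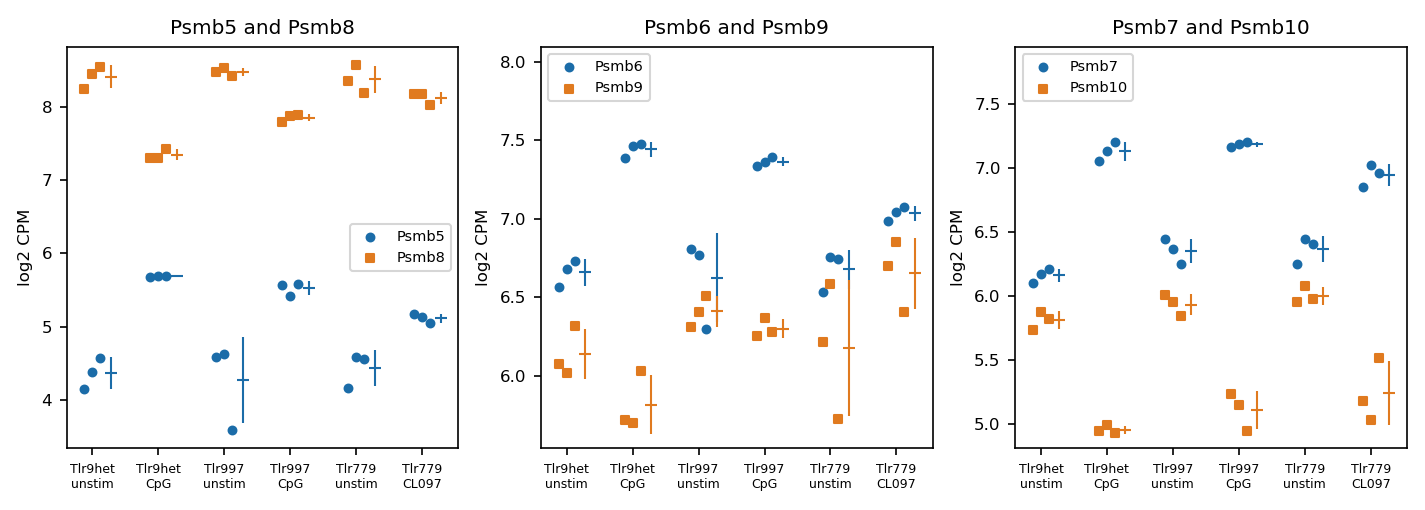
Log2 CPM (y axis) of each catalytic gene (blue circles) and its immunoproteasome counterpart (orange squares) in the 3 libraries of each of the 6 groups, with the mean ± SD beside them. The circles are higher with agonist in every genotype, while Psmb8 and Psmb10 are lower and Psmb9 is not higher with CpG; heights of different genes are not per length and are not to be compared.

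Among the 6 ATPase genes the responses were smaller. The genes called higher with CpG in each genotype were Psmc2, Psmc4 and Psmc5, with medians over the 6 of 0.51 in Tlr9het and 0.54 in Tlr997. Psmc4 alone was called with CL097, where the median was 0.29. The shares of all tested genes called higher were 29.7%, 29.6% and 22.7%. With CL097, 1 of the 6 ATPase genes was thus not above the share of all genes. Psmc1, Psmc3 and Psmc6 were at 0.31, 0.38 and 0.41 in Tlr9het and at 0.24, 0.39 and 0.45 in Tlr997, all under the fold threshold.

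Psmc4 (chr7:28041702-28050092) had the highest mean response of the ATPases. It was at 6.95, 6.90 and 7.11 log2 CPM without and 7.75, 7.79 and 7.84 with CpG in Tlr9het, and at 7.02, 7.09 and 6.82 without and 7.83, 7.79 and 7.80 with CpG in Tlr997. Its values in Tlr779 were 6.90, 7.11 and 7.03 without and 7.57, 7.53 and 7.54 with CL097. The groups did not overlap, and Psmc4 rose by 0.81 ± 0.07, 0.83 ± 0.07 and 0.53 ± 0.07 (limma adjusted p 2.27e-07, 1.96e-07 and 0.000338). The call with CL097 was lost at 0.47 when the first unstimulated Tlr779 library was left out.

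Psmc1 (chr12:100110202-100123364) had the lowest mean response of the ATPases. It was at 6.82, 6.89 and 6.89 log2 CPM without and 7.103, 7.27 and 7.17 with CpG in Tlr9het, and at 6.91, 7.00 and 6.90 without and 7.12, 7.21 and 7.21 with CpG in Tlr997. The Tlr779 values were 6.80, 6.93 and 6.98 without and 6.92, 6.97 and 6.91 with CL097. The CpG libraries lay slightly above the unstimulated ones, and the CL097 libraries fell within the range of theirs, with a log2 fold change of 0.03 ± 0.07.

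The 14 non-ATPase genes are described by their place in the particle, and a difference between places was not tested. Of the 8 lid genes, 7 were called higher with CpG in each genotype and 6 with CL097, against 29.7%, 29.6% and 22.7% of all tested genes. The medians of the lid genes were 0.97, 0.86 and 0.62. The called lid genes ran from 0.81 (Psmd6) to 1.26 (Psmd7) in Tlr9het and from 0.79 (Psmd6) to 1.19 (Psmd7) in Tlr997. With CL097 they ran from 0.51 (Psmd14, the deubiquitinase of the lid) to 0.93 (Psmd11), and Psmd14 was at 0.48 and not called without the first unstimulated library. Of the 3 other structural genes, Psmd1 was called higher with CpG at 0.82 and 0.81, while the base gene Psmd2 (0.40 and 0.36) and the ubiquitin receptor gene Psmd4 (0.34 and 0.35) did not reach the fold threshold. None of these 3 was called with CL097 by limma, although all 3 passed the adjusted p alone. Of Psmd5, Psmd9 and Psmd10, which encode chaperones that assemble the base, Psmd9 alone was called, at 0.78 ± 0.14 in Tlr9het. Without the third unstimulated Tlr997 library it was also called in Tlr997, at 0.59. Of its exon bases, 25.5% overlap an RNA gene on the opposite strand. Psmd5 and Psmd10 were at 0.27 and 0.14 in Tlr9het, 0.19 and 0.12 in Tlr997, and -0.00 and -0.13 with CL097.

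Psmd7 (chr8:107580380-107588482), the lid partner of the deubiquitinase, was at 6.51, 6.51 and 6.55 log2 CPM without and 7.73, 7.84 and 7.78 with CpG in Tlr9het. Its values in Tlr997 were 6.49, 6.54 and 6.42 without and 7.67, 7.70 and 7.66 with CpG. In Tlr779 it was at 6.60, 6.62 and 6.70 without and 7.43, 7.47 and 7.42 with CL097. Replicates were close together and the groups well apart. Psmd7 rose by 1.26 ± 0.05 or 2.39-fold (limma adjusted p 9.6e-11), 1.19 ± 0.05 (adjusted p 2.01e-10) and 0.81 ± 0.06 (adjusted p 1.97e-05).

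Psmd13 (chr7:140882394-140898642) was the lid gene that was not called. It was at 6.22, 6.28 and 6.22 log2 CPM without and 6.28, 6.36 and 6.33 with CpG in Tlr9het, and at 6.39, 6.29 and 6.20 without and 6.38, 6.42 and 6.50 with CpG in Tlr997. Its values in Tlr779 were 6.34, 6.48 and 6.51 without and 6.25, 6.29 and 6.36 with CL097. The groups overlapped in Tlr997 and Tlr779 and touched in Tlr9het. The log2 fold changes were 0.08 ± 0.06, 0.14 ± 0.06 and -0.14 ± 0.07 (limma adjusted p 0.239, 0.0551 and 0.136). Exons of Sirt3 on the opposite strand overlap 10.1% of its exon bases.

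The activators cap the barrel without ATP. Psme1 and Psme2 encode the subunits of the interferon-inducible cap that favours peptide release, Psme3 encodes a nuclear cap of the same family, and Psme4 encodes a large nuclear cap. Psme2 and Psme3 were called higher in all 3 responses, Psme1 was called in none and Psme4 was called lower in Tlr9het. The shares of all tested genes called higher were 29.7%, 29.6% and 22.7%.

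Psme3 (chr11:101316213-101323537) was at 8.37, 8.28 and 8.25 log2 CPM without and 9.57, 9.58 and 9.60 with CpG in Tlr9het. The Tlr997 values were 8.37, 8.37 and 8.47 without and 9.62, 9.59 and 9.44 with CpG, and in Tlr779 at 8.29, 8.58 and 8.29 without and 9.27 to 9.39 with CL097. No groups overlapped. Psme3 rose by 1.28 ± 0.06, 1.15 ± 0.06 and 0.93 ± 0.09 (limma adjusted p 2.14e-10, 7.83e-10 and 6.64e-05).

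Psme4 (chr11:30771775-30881150) was at 7.73, 7.69 and 7.54 log2 CPM without and 7.02, 6.94 and 6.90 with CpG in Tlr9het. In Tlr997 it was at 7.63, 7.55 and 7.73 without and 7.18, 7.19 and 7.15 with CpG, and in Tlr779 at 7.49, 7.50 and 7.57 without and 7.35, 7.29 and 7.55 with CL097. The CpG libraries were lower without overlap in both genotypes, while the CL097 libraries overlapped the unstimulated ones. Psme4 fell by 0.70 ± 0.06 on the log2 scale in Tlr9het (limma adjusted p 2.85e-07). Its value of -0.46 ± 0.06 in Tlr997 (adjusted p 1.82e-05) was short of the fold threshold and reached it, at -0.51, without the second unstimulated Tlr997 library. The value with CL097 was -0.12 ± 0.08 (adjusted p 0.209). The difference between the CpG responses was 0.23 ± 0.09 and was not called (adjusted p 0.217).

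Psme1 (chr14:55578494-55581527) and Psme2 (chr14:55587440-55591101), whose products form 1 complex, were set side by side after their values had been seen. Psme1 was at 8.28, 8.37 and 8.34 log2 CPM without and 8.16, 8.20 and 8.23 with CpG in Tlr9het, at 8.39, 8.41 and 8.32 and then 8.33, 8.26 and 8.40 in Tlr997, and at 8.35, 8.41 and 8.25 and then 8.26, 8.29 and 8.34 in Tlr779. Psme2 was at 7.38, 7.37 and 7.37 without and 8.44, 8.44 and 8.42 with CpG in Tlr9het, at 7.52, 7.63 and 7.46 and then 8.73, 8.69 and 8.80 in Tlr997, and at 7.44, 7.54 and 7.25 and then 8.29, 8.39 and 8.33 in Tlr779. Psme1 stayed between 8.16 and 8.41 in all libraries, while every stimulated Psme2 value lay above every unstimulated one. The log2 fold changes were -0.13, -0.04 and -0.04 for Psme1 and 1.06, 1.20 and 0.92 for Psme2. Within libraries, the Psme2 to Psme1 difference rose by 1.19, 1.25 and 0.96, each without overlap (exact permutation p 0.1, the smallest possible). Psme2 has a near-identical copy, Psme2b (99.4% over 794 aligned bases), so its reads could have been split or dropped in counting.

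**Figure D3:**
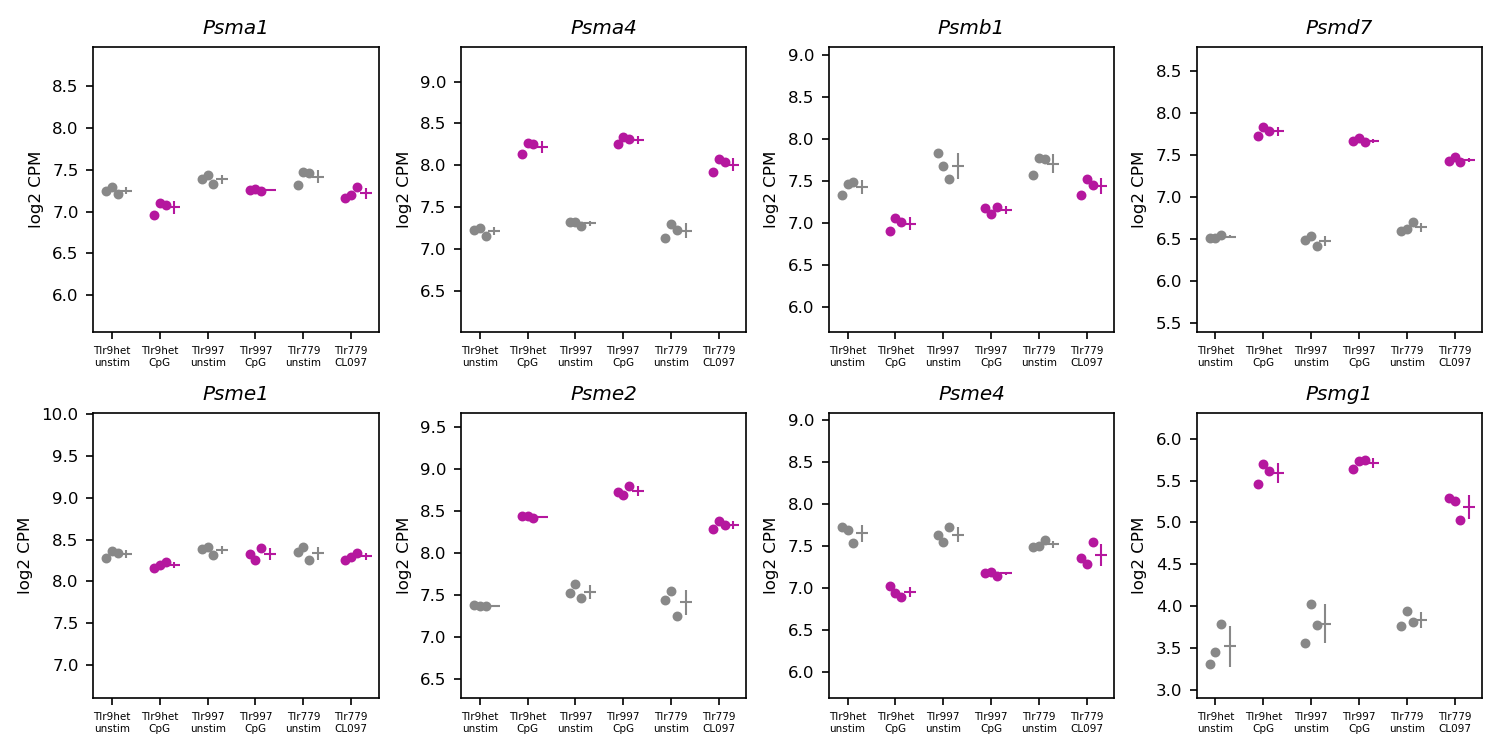
Log2 CPM (y axis, each panel spanning the same range) of 8 proteasome genes in the 3 libraries of the 6 groups, unstimulated in grey and stimulated in magenta, with the mean ± SD beside them. Psma4, Psmd7, Psme2 and Psmg1 are higher with agonist in each genotype, Psma1 and Psmb1 are slightly lower, Psme4 is lower with CpG, and Psme1 is at 8.16 to 8.41 throughout.

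The assembly chaperones of the core had a higher median response than any other class. Psmg1 and Psmg2 encode 1 pair and Psmg3 and Psmg4 another, and they guide the building of the alpha ring. All 4 were called higher with CpG in both genotypes and 3 with CL097, against 29.7%, 29.6% and 22.7% of all tested genes. The medians of the 4 were 1.77, 1.47 and 1.22. Psmg2 rose by 1.92, 1.65 and 1.55 and Psmg3 by 1.62, 1.29 and 1.09. Psmg4 rose by 1.17 and 0.90 with CpG, and its value of 0.32 ± 0.17 with CL097 was not called (limma adjusted p 0.139). Psmc3ip, the recombination gene matched by spelling, rose by 1.66, 1.98 and 1.30; exons of Mlx on the opposite strand overlap 21.2% of its exon bases.

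Psmg1 (chr16:95979933-95990960) was at 3.31, 3.46 and 3.79 log2 CPM without and 5.46, 5.70 and 5.62 with CpG in Tlr9het. Its values in Tlr997 were 3.56, 4.03 and 3.78 without and 5.64, 5.74 and 5.74 with CpG, and in Tlr779 at 3.76, 3.94 and 3.82 without and 5.29, 5.26 and 5.03 with CL097. All stimulated libraries were above 5 and all unstimulated ones at most at 4.03. Psmg1 rose by 2.07 ± 0.14 or 4.21-fold in Tlr9het (limma adjusted p 1.1e-08), 1.92 ± 0.14 or 3.78-fold in Tlr997 (adjusted p 2.84e-08) and 1.35 ± 0.11 or 2.55-fold with CL097 (adjusted p 2.98e-05).

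Psmf1 (chr2:151716062-151744199), which encodes a protein first described as a proteasome inhibitor, was at 5.52, 5.58 and 5.45 log2 CPM without and 6.05, 6.12 and 6.05 with CpG in Tlr9het. The Tlr997 values were 5.68, 5.79 and 5.58 without and 6.25, 6.08 and 5.86 with CpG, and in Tlr779 at 5.80, 5.79 and 5.72 without and 5.82, 5.69 and 5.95 with CL097. The CpG libraries were above the unstimulated ones in both genotypes and the CL097 libraries overlapped them. The log2 fold changes were 0.56 ± 0.09, which was called (limma adjusted p 9.15e-05), 0.38 ± 0.09 (adjusted p 0.00193) and 0.05 ± 0.09 (adjusted p 0.624).

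The TIR domain of the DNA receptor was compared next, as Tlr997 against Tlr9het. Without agonist, limma called 0 of 44 proteasome genes, against 0.0174% of all genes. At an unadjusted p under 0.05 there were 12 of 44 (27.3%), against 10.8% of all genes. With CpG, limma again called 0 (background 2.72%). At an unadjusted p under 0.05 there were 9 of 44 (20.5%), against 19.0%. At the adjusted p alone there were 3 (6.82%), against 5.92%, all higher in Tlr997. They were Psma1 by 0.21 ± 0.05 (limma adjusted p 0.0355), Psma6 by 0.30 ± 0.07 (adjusted p 0.0163) and Psme2 by 0.31 ± 0.05 (adjusted p 0.00372). The median of the 44 genes was 0.09 without agonist (all genes -0.01) and 0.04 with CpG (all genes 0.00). Without agonist, 34 of the 44 were higher in Tlr997, against 5463 of 11494 tested genes. With CpG there were 27 of the 44, against 5763 of 11494.

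The test of the difference between CpG responses, Tlr997 minus Tlr9het, also called 0 of 44 genes by limma (background 1.54%). At an unadjusted p under 0.05 there were 3 of 44 (6.82%), against 16.0% of all genes. The differences ran from -0.36 ± 0.19 (Psmd9) to 0.32 ± 0.24 (Psmc3ip), with a median of -0.04 against 0.01 for all genes. The 95% confidence interval lay within 0.5 of 0 for 37 of the 44 genes. The other 7 were Psmb5, Psmd9, Psmc3ip and Psmg1 to Psmg4, whose intervals reached beyond 0.5. For Psmb5 the interval was -0.72 to 0.59. Without the third unstimulated Tlr997 library, which was left out after seeing the data, the difference was -0.19 for Psmd9 and -0.41 for Psmb5, neither called (limma adjusted p 0.474 and 0.138). Across the 44 genes, which are not independent of each other, the CpG responses had a Pearson r of 0.97 and a Spearman rho of 0.97, where all 11494 genes had 0.93 for both. The signed log2 fold change was lower in Tlr997 for 29 of the 44, against 5547 of all 11494 genes. For a gene that fell, such as Psmb1 (-0.52 against -0.44), lower means a larger fall.

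**Figure D4:**
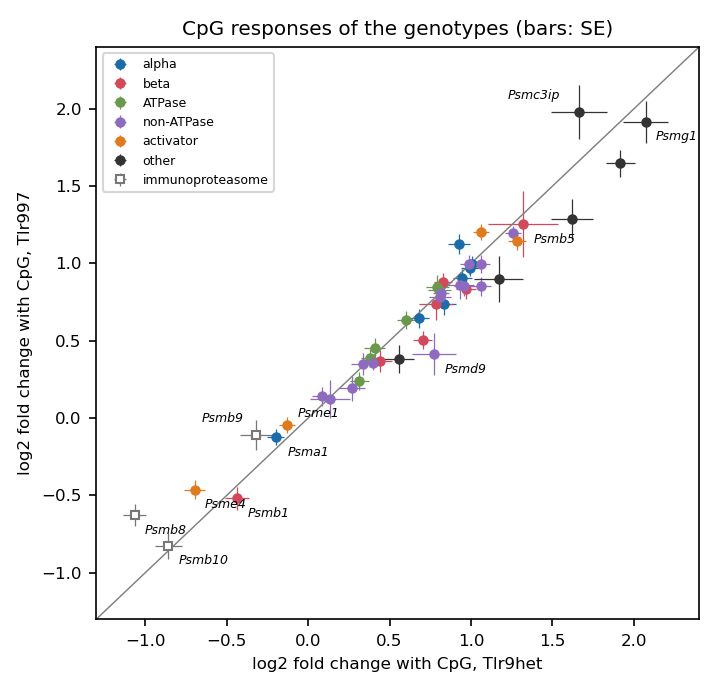
Log2 fold change with CpG in Tlr997 (y axis) against that in Tlr9het (x axis), bars ± SE, for the 44 proteasome genes coloured by class and for Psmb8, Psmb9 and Psmb10 (open squares). The grey line marks equal responses; the proteasome genes lie along it, with differences of -0.36 to 0.32.

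Genes around the proteasome were read from lists of genes with known roles. Of all tested genes, 29.7%, 29.6% and 22.7% were called higher in Tlr9het, Tlr997 and Tlr779, and 28.2%, 26.0% and 23.6% lower. The counts of the lists were not tested against these shares. Of 15 proteasome parts and partners listed under other symbols, 10 were called higher and 1 lower after CpG in Tlr9het, 7 and 0 in Tlr997, and 7 and 0 with CL097. Usp14, a deubiquitinase of the regulatory particle, rose by 1.27, 1.30 and 1.08. Uchl5, another deubiquitinase there, rose by 0.89, 0.85 and 0.86. Ubqln4, which encodes a shuttle factor that brings ubiquitinated proteins to the particle, rose by 0.98, 1.03 and 1.18. Zfand5, an activator of the proteasome, fell by 0.52 in Tlr9het and was at -0.44 and -0.38 in the others. Shfm1, a lid subunit listed under another symbol, was the 1 gene of the 15 called in the difference of CpG responses (background 1.54%), at -0.59 ± 0.13 (limma adjusted p 0.0402), with 0.46 in Tlr9het and -0.13 in Tlr997. Its call was lost in 8 of the 12 fits that left out 1 library.

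Proteasome genes are known targets of the transcription factor NRF1 (Nfe2l1), which with small MAF partners binds antioxidant response elements. Of 12 genes in the NRF1 and NRF2 pathway, 5 were called higher and 5 lower in Tlr9het, 1 and 5 in Tlr997, and 4 and 3 with CL097. The shares of all tested genes called higher and lower were 29.7% and 28.2%, 29.6% and 26.0%, and 22.7% and 23.6%. Nfe2l1 itself was at 0.64 ± 0.06 in Tlr9het, which was called, and at 0.50 ± 0.06 in Tlr997 and 0.19 ± 0.06 with CL097, which were not. Mafg, a small MAF gene, rose by 1.63, 1.42 and 1.50. Syvn1 and Ngly1, whose products act on NRF1 as ubiquitin ligase and deglycosylase, had log2 fold changes of -1.48 and -0.86 in Tlr9het, -1.19 and -0.89 in Tlr997, and -1.19 and -0.84 with CL097, all called lower. Nfe2l2, which encodes NRF2, was called lower with CpG (-0.50 and -0.65) and was at 0.26 with CL097. In Tlr9het, Keap1 of the same list went from 5.76 to 5.87 log2 CPM without to 4.67 to 4.88 with CpG. Bach1 went from 6.10 to 6.28 down to 5.30 to 5.33, and Ddi2 from 5.36 to 5.46 up to 5.84 to 5.94. In Tlr997, Keap1 went from 5.79 to 5.93 down to 5.24 to 5.30 with CpG. There Bach1 went from 6.23 to 6.29 down to 5.12 to 5.35, and Ddi2 from 4.99 to 5.38 up to 5.61 to 5.75. With CL097, Keap1 went from 5.87 to 5.99 down to 4.90 to 5.19. Bach1 moved less there, from 6.12 to 6.15 down to 5.87 to 6.03, and Ddi2 went from 5.24 to 5.33 up to 5.48 to 5.59. Fbxw7, which encodes a ubiquitin ligase subunit that acts on NRF1, rose by 0.91 in Tlr9het and was at 0.31 in Tlr997. With CpG it was called lower in Tlr997 cells, at -0.78 ± 0.08 (limma adjusted p 0.00015), and in the difference of CpG responses, at -0.60 ± 0.11 (adjusted p 0.0186); the latter call was lost in 3 of the 12 fits that left out 1 library.

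A list of 10 other genes with antioxidant response elements had 1, 2 and 0 called higher and 1, 1 and 2 called lower in the 3 responses. Of all tested genes, 29.7%, 29.6% and 22.7% were called higher and 28.2%, 26.0% and 23.6% lower. Hmox1, which degrades heme, was lower in each, at -0.88, -0.77 and -1.51. The median myeloid marker sum was lower in the same stimulated groups, and its part in this was not tested.

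The 46 genes were spread over the genome, with 9 on chromosome 11, 6 each on chromosomes 2 and 14, and fewer on the others. Promoter windows of 250 bases before to 50 after a transcript start (RefSeq, GRCm38.p6) were given for 38 of them. Each was read on both strands for TGACNNNGC, the antioxidant response element. It was found in 6 of 40 windows of the tested proteasome genes (15.0%), against 14.5% of the windows of all tested genes and 12.4% of all windows. The 6 genes were Psmb5, Psmb6, Psmc6, Psmd9, Psmd12 and Psme4. The letters CCAAT were in 32.5% of the proteasome windows against 37.9% of those of tested genes. The core of the interferon-stimulated response element, searched as TTTC, any 2 bases and TTTC, was in 5 windows (12.5%, for Psmb3, Psmd4, Psmd9, Psme1 and Psmg4) against 3.14%. A match is a description of the letters and not a measured binding site.

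The promoters of Psmb5, Psmb6 and Psme4 are shown as 3 examples that held the first motif close to the start and went in different directions with CpG in Tlr9het: Psmb5 and Psmb6 rose and Psme4 fell. Psmd9, which also rose there, holds it 31 bases before its start and is not shown. Each stretch covers 100 bases before to 20 after the start, 5′ to 3′ on the strand of the gene, at chr14:54617976-54618095 (minus strand) for Psmb5, chr11:70525257-70525376 (plus strand) for Psmb6 and chr11:30771675-30771794 (plus strand) for Psme4. Capitals mark the match to TGACNNNGC, which in Psme4 lies on the opposite strand.
Psmb5: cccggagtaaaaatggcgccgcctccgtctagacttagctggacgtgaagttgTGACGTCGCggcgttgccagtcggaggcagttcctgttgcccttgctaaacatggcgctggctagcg
Psmb6: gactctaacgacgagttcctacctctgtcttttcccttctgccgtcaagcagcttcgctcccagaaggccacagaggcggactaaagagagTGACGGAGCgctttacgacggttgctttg
Psme4: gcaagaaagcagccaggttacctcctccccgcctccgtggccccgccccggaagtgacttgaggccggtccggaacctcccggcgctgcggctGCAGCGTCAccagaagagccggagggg

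Several values carry an uncertainty of counting. Psma3, Psma4, Psma5, Psmb3, Psmb5, Psmc1, Psmd2, Psmd11 and Psme2 have at least 1 copy elsewhere, most of them processed pseudogenes, with over 95% identity across 200 bases or more. How reads that fit several places were counted was not stated.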

How the data were processed

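RNA was from splenic B cells of 18 libraries in 6 groups of 3, as the labels give them. Per the labels and methods, the authors made stranded mRNA libraries, sequenced paired ends, aligned them with STAR (2.6.1a) to mm10, counted them with featureCounts (Subread 2.0.1), and applied quantile normalization and voom. The deposited values were log2 CPM with 3 replicates per group and no counts. Depth is unknown, so no counting intervals were computed. The submitters' 3 mice per genotype were not tied to libraries by a label, and p-values measure the spread between these libraries, which may be technical.

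The proteasome genes and the other lists were chosen with earlier results of these data known. Genes over 0 log2 CPM in at least 3 libraries of an arm were tested (11494 and 11082) with limma 3.58.1 in R 4.3.3, on the deposited values with no added pseudocount, with a variance trend, 1 mean per group and Benjamini-Hochberg adjustment over all tested genes. The low end is compressed by voom's offset, which understates changes of low genes. The 12 libraries of the Tlr7-/- arm shared 1 model and the 6 Tlr779 libraries another. The fit was tested on simulated data with independent noise in each library. That simulation held no deviation shared by replicate number, so it could not check the effect of such sharing. Genes given library by library were Psmb5, Psmb6, Psmb7 and the tested gene with the highest and lowest mean response in each class. Psme1 and Psme2 were added after their values were seen.

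Samples with the same replicate number deviated together in Tlr9het (correlations 0.51, 0.29 and 0.51) and Tlr779 (0.20, 0.42 and 0.28), and in Tlr997 for number 1 alone (0.37, against 0.08 and 0.02). Of 6614 genes below -4 log2 CPM throughout the Tlr7-/- arm, 6306 had 1 value per replicate number, and for 822 of these it differed between the numbers, a step that the sources used here do not state. Fits without a replicate block therefore count too many degrees of freedom, and a fit with the block was among the alternatives. Coordinates and promoters were from RefSeq on GRCm38.p6, exon overlaps and copies (BLAST 2.17.0) from GENCODE vM21. Protein sequences were not used here, and results for some listed genes are not reported here.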

Additional observations from a re-analysis of the deposited data

How the results depend on the processing

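The replicate block fits 1 offset per replicate number, which in the Tlr7-/- arm is shared by both genotypes and so does not pair within genotype. With it, limma called 31 proteasome genes higher and 1 lower after CpG in Tlr9het, 29 and 1 in Tlr997, and 22 and 0 with CL097. It called 0 between genotypes and in the difference of CpG responses. This block changed none of these counts. Fits with no filter, no variance trend, 1 model of all libraries or, where it differed, only the groups compared gave these counts too, and median centring gave 28 higher genes in Tlr997 (Psmb4 at 0.499) and the same counts elsewhere. Without a fold threshold, 4 (Tlr9het), 2 (Tlr997) and 2 (CL097) genes were lower, against 35.3%, 33.1% and 31.4% of all tested genes. In the same setting, 3 differed between genotypes with CpG, against 5.92%. With a threshold of 1, 12, 9 and 4 were higher and 0 were lower in Tlr9het and in Tlr997. Shares of all genes under the other alternatives are not given here, so those counts are not set against a background. Leaving out 1 library at a time gave 31 to 32 higher genes in Tlr9het, 28 to 29 in Tlr997 and 19 to 22 with CL097, and 0 to 2 lower genes in Tlr997. Psmb1 lost its call without the first unstimulated or the second CpG library of Tlr997, and Psme4 gained one without the second unstimulated library. When 1 library was left out, the CL097 response of Psmc1 ran from -0.017 (without the first unstimulated library) to 0.07, and that of Psmf1 from -0.013 (without the third CL097 library) to 0.117; both changed sign and neither was called. Added after seeing the data, leaving out 1 library at a time gave differences of CpG responses of -0.405 to 0.115 for Psmb5, -0.484 to -0.185 for Psmd9, -0.672 to -0.527 for Shfm1 and -0.683 to -0.51 for Fbxw7, and a CL097 change of the Psmb6 to Psmb9 difference of -0.285 to 0.137. Among the values of named genes under the alternatives, 739 kept their direction and side of the threshold, 10 newly passed it and 19 no longer did. A block within genotype could not be fitted for differences between genotypes, and its results for the CpG responses are not given here. The cause of these shifts was not tested. Depth is unknown, so no limit from counting can be given.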
